A study of Mus musculus with 23 samples.

Results

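NICD1, the part of Notch1 that is freed into the cell on activation, was overexpressed in cultured myogenic progenitors, and their transcriptome was compared with that of control progenitors. The comparison used 7 of the 23 mouse libraries of the study, 4 of control and 3 of NICD1-overexpressing (N1OE) cells, and covered the 12314 of 21264 listed genes that reached at least 1 CPM in at least 3 of these 7 libraries. CPM values are read counts scaled so that every library has the same total, and per-library values are listed below in order of replicate number. Both groups were iPAX3 cells, which are pluripotent cells carrying inducible Pax3, a factor that steers them towards muscle, and both were labelled as ESC-derived myogenic progenitors grown in vitro. The control genotype was labelled WT and the other N1OE, so the inducible Pax3 is shared by the groups and the NICD1 construct is the labelled difference. The labels used here give neither the promoter that drives NICD1, nor the number of clones, nor the length of culture. RNA was extracted with Trizol and converted into TruSeq stranded mRNA libraries in both groups.

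Notch receptors are cut when a ligand on a neighbouring cell binds them, and the released intracellular domain enters the nucleus, where it joins the DNA-binding protein Rbpj and Mastermind coactivators to switch on genes such as those of the Hes and Hey repressors. In the muscle lineage the pathway is known for holding progenitors in an undifferentiated state and for maintaining satellite cells, the stem cells of adult skeletal muscle. Differentiation instead proceeds through Myod1 and Myog, which activate the genes of the contractile apparatus.

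The libraries held between 15273185 and 21761905 reads in the listed genes, so that 1 read was worth 0.0460 to 0.0655 CPM. The labels do not say whether replicates were separate cultures, and the p-values therefore reflect no more than sample-to-sample spread, part or all of which may be technical. N1OE replicates 2 and 3 were close to each other (chi-square per degree of freedom 3.31 over gene counts, while N1OE replicate 1 gave 29.7 and 35.0 with them and control pairs gave 48.3 to 155), yet differed by more than counting noise and were kept as 2 samples. Control replicate 4 stood apart from the other controls, with a Pearson correlation across genes of 0.891 to 0.908 against 0.941 to 0.974 among the other 3. Replicate 1 of each group carries another form of sample description than the rest, and the descriptions of all 4 controls and N1OE replicate 1 end in GoF while those of N1OE replicates 2 and 3, the close pair, do not. What either marks is not stated. A fit with the form of description as a batch is among the alternatives, and the part of the GoF ending in the results was not tested. Among the defining genes of myogenic progenitors, Pax3, Myf5, Myod1, Met and Cdh15 were read in every library, while Pax7, the satellite cell factor, did not exceed 0.891 CPM in any.

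In all, 1325 genes (10.8%) passed, of which 583 (4.73% of those tested) were higher and 742 (6.03%) lower in N1OE at an adjusted p under 0.05 by limma, and 235 of the higher and 541 of the lower ones differed by more than 1 on the log2 scale. The median of all tested genes was 0.07. The groups' libraries did not overlap for 4282 genes (34.8%), namely 2593 higher (21.1%) and 1689 lower genes (13.7%). How many genes passed depended on which libraries entered, and above all on the N1OE libraries. Without N1OE replicate 1, 2 or 3, 384, 184 and 209 genes passed, without control replicate 2 566, and with N1OE replicates 2 and 3 averaged into 1 sample 198 (1.61%; 58 higher, 0.471%, and 140 lower, 1.14%). A call is described below as held in every refit where it remained past the threshold with any 1 of the 7 libraries left out and with N1OE replicates 2 and 3 averaged. That was so for 163 genes (1.32%), 47 higher (0.382% of those tested) and 116 lower (0.942%). Beside the count of each gene list stand the shares of its tested members that rose and that fell, to be read against 4.73% and 6.03% over all tested genes.

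**Figure D1:**
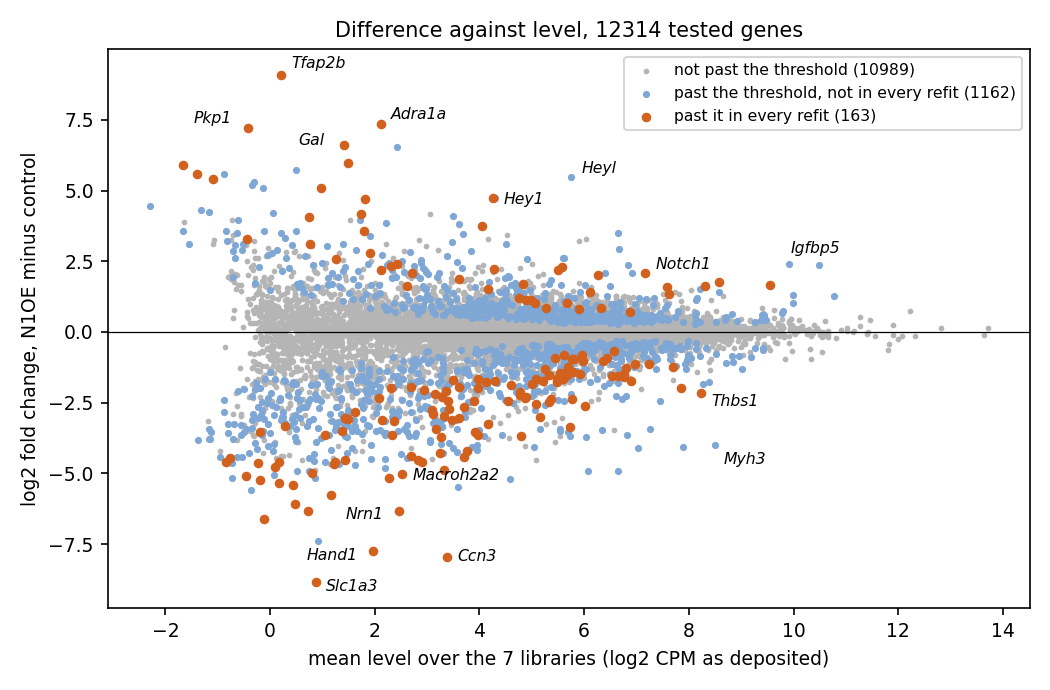
Log2 fold change (N1OE minus control) of each of the 12314 tested genes against its mean deposited log2 CPM over the 7 libraries. Grey points did not pass an adjusted p of 0.05, blue points passed, and the 163 orange points were held in every refit. Tfap2b lies highest and Slc1a3 lowest.

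The overexpressed gene was higher in every N1OE library. Notch1 (chromosome 2, 26457903 to 26516663, minus strand, GRCm38) was read at 61.3, 78.4, 71 and 105 CPM in control libraries and 369.8, 297 and 322 CPM in N1OE libraries. The groups did not overlap, with a log2 fold change of 2.08 ± 0.18 (standard error) and an adjusted p of 0.00244 by limma, held in every refit. The counts are per gene and do not separate reads of the construct from those of the endogenous locus. Notch3, a second receptor and itself a Notch target, stood at 255, 224, 141 and 183 CPM in control libraries and 719.7, 545 and 569 CPM in N1OE libraries, again without overlap (1.63 ± 0.21, adjusted p = 0.00772 by limma), and was also held in every refit. Notch2 at 381, 252, 206 and 129 CPM in control libraries and 323, 297 and 299.6 CPM in N1OE libraries overlapped between the groups and did not pass (adjusted p = 0.375 by limma). Notch4 was below 0.4 CPM in all 7 libraries and was not tested.

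Of 9 tested ligands and Fringe modifiers 2 fell and 0 rose (rose 0%, fell 22.2%). The ligand Jag2 was read at 28.8, 9.43, 9.23 and 40.4 CPM in control libraries and 2.57, 2.96 and 2.79 CPM in N1OE libraries, every N1OE library below every control (log2 fold change -2.66 ± 0.56, adjusted p = 0.0295 by limma). Dlk2, a non-canonical ligand of the Delta family, was at 1.29, 1.77, 1.76 and 1.19 CPM in control libraries and 0.396, 0.566 and 0.355 CPM in N1OE libraries (-1.66 ± 0.35, adjusted p = 0.031 by limma). The ligand Jag1 did not pass (adjusted p = 0.36 by limma), and its values of 9.88, 29.5, 19.4 and 81.2 CPM in control libraries and 84.1, 40.7 and 38 CPM in N1OE libraries show N1OE replicate 1 and control replicate 4 at nearly the same level. Dll1 had lower means in N1OE (7.88 ± 1.04 against 12.7 ± 4.78 CPM (SD)) with overlapping libraries (adjusted p = 0.191 by limma). Among 17 genes of receptor processing and endocytosis 1 rose and 1 fell (rose 5.88%, fell 5.88%), shares near those over all tested genes. Dtx4, a ubiquitin ligase of the pathway, rose from 22.4 to 77.2 CPM in the controls to 260.4 to 366 CPM in N1OE (2.93 ± 0.39, adjusted p = 0.00833 by limma). Numb, an inhibitor that sends the receptor to endocytosis, was lower by less than 1 on the log2 scale but with little spread (31.7, 34.1, 30.7 and 35.6 CPM in control libraries and 22.9, 20.8 and 23.7 CPM in N1OE libraries; -0.56 ± 0.11, adjusted p = 0.0239 by limma). Of 14 nuclear cofactors 1 fell (rose 0%, fell 7.14%), Rbpj itself, at 140.4, 102, 107 and 158 CPM in control libraries and 70.4, 78.9 and 73.5 CPM in N1OE libraries (-0.75 ± 0.17, adjusted p = 0.0345 by limma). The falls of Jag2, Numb and Rbpj were each lost without any 1 N1OE library (adjusted p up to 0.117, 0.126 and 0.138 by limma), that of Numb also without control replicate 2 and that of Rbpj without control replicate 1. Dtx4 was lost without N1OE replicate 2 (0.0517), and Dlk2 without any 1 N1OE library or control replicate 2 or 3 (0.133).

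Among 11 tested Notch target genes 6 rose and 0 fell (rose 54.5%, fell 0%), and their median log2 fold change was 1.63 against 0.07 over all tested genes. The direction was not uniform, as 8 had a positive and 3 a negative difference, the lowest at -0.67. Of these 3, 2 had an unadjusted p under 0.05 by limma. Hey1, a transcriptional repressor, was read at 6.02, 2.16, 3.11 and 11.4 CPM in control libraries and 162, 108 and 111 CPM in N1OE libraries (4.73 ± 0.54, adjusted p = 0.00489 by limma). Its relative Heyl was at 26.3, 4.19, 3.25 and 34.3 CPM in control libraries and 717, 367 and 401 CPM in N1OE libraries (5.48 ± 0.89, adjusted p = 0.0145 by limma). Both were far above every control, although the controls themselves spread over several-fold, with control replicates 1 and 4 above 2 and 3. Nrarp, a feedback inhibitor of the pathway, was nearly silent in the controls and lay at 0.368, 0.196, 0.557 and 0.476 CPM in control libraries and 12.4, 16.9 and 15.3 CPM in N1OE libraries (5.10 ± 0.37, adjusted p = 0.00231 by limma). Hes1 rose to a narrow range of 64.6 to 66.3 CPM in N1OE from 17.7 to 40.0 CPM (1.37 ± 0.29, adjusted p = 0.03 by limma). Hey2 was higher in all 3 N1OE libraries at 0.046, 0.327, 0.278 and 1.07 CPM in control libraries and 4.16, 1.76 and 2.08 CPM in N1OE libraries but did not pass (adjusted p = 0.0631 by limma). Hes5, a target in neural tissue, had 0 reads in all 7 libraries. Held in every refit were Hey1, Nrarp and Notch3. Heyl was lost without any 1 N1OE library (adjusted p up to 0.0656 by limma), and so was Hes1, which was lost without control replicate 2 as well (up to 0.123).

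**Figure D2:**
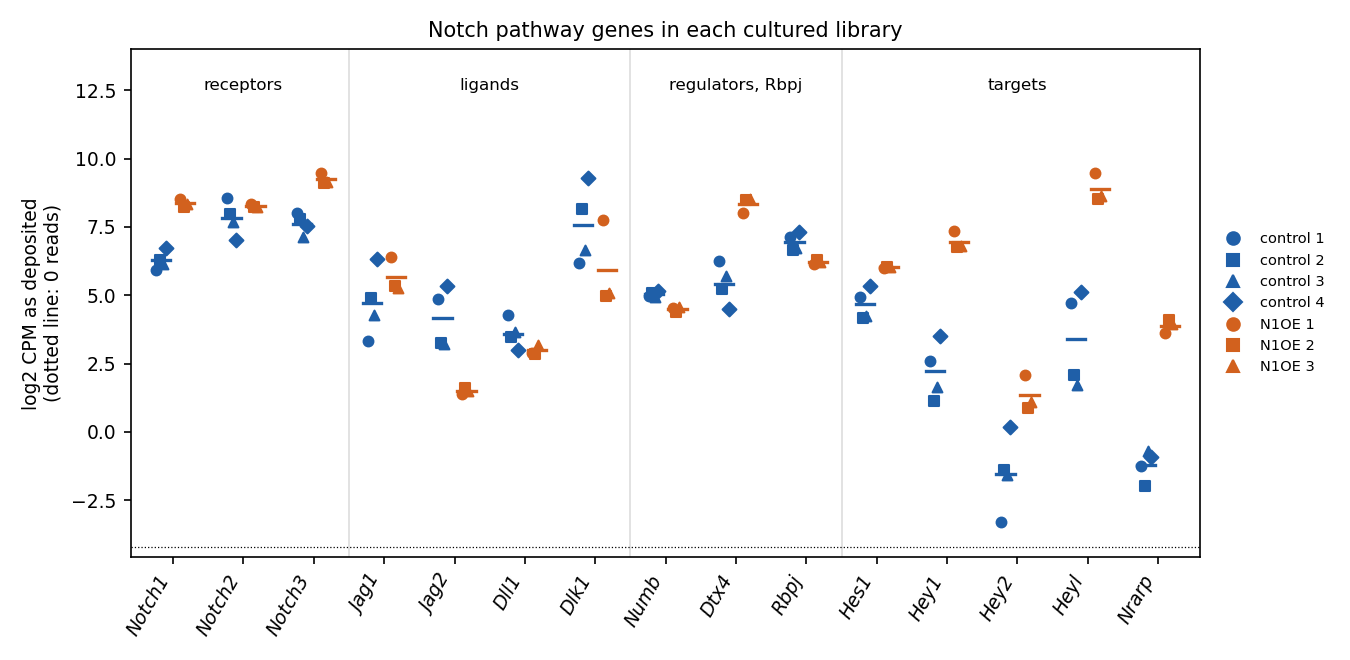
Deposited log2 CPM of 15 Notch pathway genes in each control (blue) and N1OE (orange) library, one marker shape per replicate number, with the group mean as a bar. Notch1, Notch3, Dtx4, Hes1, Hey1, Hey2, Heyl and Nrarp lie higher and Jag2, Numb and Rbpj lower in every N1OE library.

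The 250 bases before the start of 3 Notch targets and 3 contractile genes are shown, since the calls in those sets had opposite signs. They come from RefSeq on GRCm38.p6, each 5′ to 3′ on the gene's own strand, and capitals mark whole matches to the Rbpj core GTGGGAA or to the E-box CAGCTG, on either strand. The E-box is a core letter run bound by Myod1 and Myog. Of the Notch target genes 6, with 7 promoters, had an entry. Nrarp (chr2:25180508-25180757, plus strand), Notch3 (chr17:32166891-32167140, minus strand) and Hey2 (chr10:30842784-30843033, minus strand) are followed by Mylpf (chr7:127211358-127211607, plus strand), Des (chr1:75360042-75360291, plus strand) and Myl1 (chr1:66945057-66945306, minus strand).
Nrarp: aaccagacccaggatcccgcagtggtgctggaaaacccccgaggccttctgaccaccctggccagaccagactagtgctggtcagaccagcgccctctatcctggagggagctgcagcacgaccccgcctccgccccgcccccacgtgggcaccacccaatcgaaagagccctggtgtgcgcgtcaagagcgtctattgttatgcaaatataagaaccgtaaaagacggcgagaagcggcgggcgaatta
Notch3: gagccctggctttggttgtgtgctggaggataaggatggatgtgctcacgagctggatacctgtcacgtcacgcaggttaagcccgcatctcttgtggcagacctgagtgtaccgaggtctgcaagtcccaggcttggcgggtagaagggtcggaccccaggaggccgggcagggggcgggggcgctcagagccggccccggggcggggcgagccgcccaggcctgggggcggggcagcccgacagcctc
Hey2: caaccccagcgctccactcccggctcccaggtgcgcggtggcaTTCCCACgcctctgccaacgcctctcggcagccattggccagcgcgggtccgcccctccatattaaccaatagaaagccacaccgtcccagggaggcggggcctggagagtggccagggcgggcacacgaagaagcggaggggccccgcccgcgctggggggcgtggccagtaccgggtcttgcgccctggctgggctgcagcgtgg
Mylpf: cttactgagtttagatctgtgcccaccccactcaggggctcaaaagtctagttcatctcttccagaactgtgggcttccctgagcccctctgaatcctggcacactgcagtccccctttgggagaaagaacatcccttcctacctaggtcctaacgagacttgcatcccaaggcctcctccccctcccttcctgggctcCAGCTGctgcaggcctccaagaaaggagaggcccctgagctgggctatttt
Des: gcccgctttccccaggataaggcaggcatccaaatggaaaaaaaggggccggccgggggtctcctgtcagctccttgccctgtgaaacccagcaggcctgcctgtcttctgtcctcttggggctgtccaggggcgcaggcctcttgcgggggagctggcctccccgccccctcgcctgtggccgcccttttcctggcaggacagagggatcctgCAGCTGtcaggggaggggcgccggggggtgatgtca
Myl1: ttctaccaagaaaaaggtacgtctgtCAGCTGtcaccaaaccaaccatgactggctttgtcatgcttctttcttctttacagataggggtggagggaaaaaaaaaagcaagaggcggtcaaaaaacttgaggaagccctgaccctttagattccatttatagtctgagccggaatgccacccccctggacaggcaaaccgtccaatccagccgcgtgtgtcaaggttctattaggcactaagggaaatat
The stretches of Nrarp and Notch3 hold neither motif. Hey2, unlike the other 5 genes shown, was not called. In its stretch the marked match begins 207 bases before the start. A second one begins 4 bases before the start and runs past the end of the stretch shown. In Mylpf, Des and Myl1 an E-box begins 51, 36 and 224 bases before the start. Among stretches searched but not shown, those of Actc1 and Myog held no E-box, while that of Acta1 and an entry of Tnnt2 did. Windows from 250 bases before to 50 after the start were searched for both motifs. GTGGGAA on either strand was found in 6.38% of all promoters in the table and in 6.09% of those of tested genes. Among promoters of genes higher in N1OE the share was 8.35%, and among those of genes lower in N1OE 7.13%. CAGCTG reads the same on both strands and can share at most 1 end letter with the first motif. It was found in 16.3% of all promoters, in 15.5% of those of tested genes, in 15.2% of those of higher and in 20.3% of those of lower genes. It was in 12 of 30 promoters (40.0%) of 26 sarcomere and contractile genes and in 3 of 7 of the Notch targets, which held GTGGGAA in 2 of 7.

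Of 10 paraxial mesoderm and premyogenic factors 4 rose and 1 fell (rose 40%, fell 10%), with 0 held in every refit and 0 passing with N1OE replicates 2 and 3 averaged. The homeobox factor Six4 had means of 70.2 ± 3.77 against 42.9 ± 8.21 CPM (SD), and Eya1, a transcriptional coactivator, was at 29.3, 29.2, 22.5 and 21.8 CPM in control libraries and 47.8, 45.1 and 46.9 CPM in N1OE libraries (log2 fold changes 0.73 ± 0.16 and 0.87 ± 0.14, adjusted p = 0.0329 and 0.0147 by limma). Dmrt2, a somite factor, rose more than either, at 81.8, 47.3, 45.8 and 24.3 CPM in control libraries and 205, 189 and 184 CPM in N1OE libraries (2.08 ± 0.36, adjusted p = 0.0169 by limma). Pax3 varied more between controls than between groups, at 1328, 232, 844 and 77.8 CPM in control libraries and 358, 545 and 553 CPM in N1OE libraries (adjusted p = 0.831 by limma). Myf5, the first of the MyoD family to act in the embryo, likewise overlapped, at 178, 55.5, 101 and 24.9 CPM in control libraries and 90.3, 152 and 173 CPM in N1OE libraries (adjusted p = 0.346 by limma). The faller was Eya4, a relative of Eya1, at 197, 171, 81.4 and 141 CPM in control libraries and 79.8, 43 and 36.7 CPM in N1OE libraries (-1.48 ± 0.37, adjusted p = 0.0465 by limma). The rises of Six4, Eya1 and Dmrt2 were lost without any 1 N1OE library (adjusted p up to 0.141, 0.0794 and 0.0791 by limma), and that of Six4 also without control replicate 2. Eya4 was lost in every refit that left out 1 library except that without control replicate 3 (0.177).

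Of 20 satellite cell markers 4 rose and 1 fell (rose 20%, fell 5%), and 15 had a positive difference. Cdh15, the cadherin M of satellite cells and myoblasts, was at 271, 177, 123 and 224 CPM in control libraries and 599, 520.2 and 513 CPM in N1OE libraries (1.51 ± 0.25, adjusted p = 0.0162 by limma). Fgfr1 rose from 149 ± 41.5 CPM in the controls to 282 ± 34.9 CPM in N1OE (SD; 0.96 ± 0.21) (adjusted p = 0.0345 by limma). Msc, the repressor musculin, rose from 0 to 0.416 CPM in the controls to 1.38 to 5.2 CPM (4.24 ± 0.86, adjusted p = 0.0277 by limma). The fourth riser was Heyl and the faller was Des, given elsewhere. Itga7, a laminin receptor, and Calcr, the calcitonin receptor of quiescent satellite cells, did not pass (adjusted p = 0.0548 and 0.106 by limma), and each was higher in all 3 N1OE libraries than in any control, Calcr at 44.3, 6.61, 8.59 and 0.773 CPM in control libraries and 69.8, 66.5 and 62.7 CPM in N1OE libraries. The rises of Cdh15, Fgfr1 and Msc were lost without any 1 N1OE library (adjusted p up to 0.0728, 0.147 and 0.107 by limma), Msc also without control replicate 2 and Fgfr1 without control replicate 1, 2 or 3.

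Of 15 myogenic regulators 5 fell and 0 rose (rose 0%, fell 33.3%), and 13 had a negative difference. By limma-voom 1 passed, with N1OE replicates 2 and 3 averaged 0, without N1OE replicate 2 or 3 0, and without control replicate 1, 2 or 3 3, 2 and 10. Myod1, the determination factor, was read at 52.8, 21.5, 13.8 and 54.8 CPM in control libraries and 6.88, 3.21 and 3.55 CPM in N1OE libraries (-2.81 ± 0.55, adjusted p = 0.0241 by limma). Myog, which drives terminal differentiation, was at 953, 526, 129 and 502 CPM in control libraries and 137, 20.6 and 21.4 CPM in N1OE libraries (-3.43 ± 0.87, adjusted p = 0.0486 by limma). N1OE replicate 1 lay just above control replicate 3, so for Myog the groups overlap. Rbm24, an RNA-binding splicing regulator of muscle, fell without overlap at 173, 89.6, 53.9 and 130.0 CPM in control libraries and 23.7, 16.9 and 16 CPM in N1OE libraries (-2.45 ± 0.38, adjusted p = 0.013 by limma). None of the 5 calls was held in every refit. Myod1 was lost without control replicate 2 or any 1 N1OE library (adjusted p up to 0.112 by limma), Rbm24 without N1OE replicate 2 or 3 (0.0694), and Myog without N1OE replicate 2 or 3 or control replicate 1, 2 or 4 (up to 0.182).

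The contractile genes had the lowest median log2 fold change of all 39 lists. Of 32 sarcomere and contractile genes 11 fell and 0 rose (rose 0%, fell 34.4%), 31 had a negative difference, and that median was -3.67 against 0.07 over all tested genes. Embryonic myosin Myh3 was read at 3594, 891, 291 and 2205 CPM in control libraries and 245, 41.4 and 40.4 CPM in N1OE libraries (-4.01 ± 0.99, adjusted p = 0.0451 by limma). Skeletal actin Acta1 was at 1493, 264, 80.7 and 1108 CPM in control libraries and 46.9, 7.24 and 8.58 CPM in N1OE libraries (-4.92 ± 1.13, adjusted p = 0.0368 by limma). The fast light chain Mylpf was at 1236, 272, 115 and 1000.2 CPM in control libraries and 82, 13.5 and 15 CPM in N1OE libraries (-4.11 ± 0.99, adjusted p = 0.042 by limma). The essential light chain Myl1 was at 798, 222, 69.5 and 579 CPM in control libraries and 37.1, 5.22 and 4.57 CPM in N1OE libraries (-4.91 ± 1.03, adjusted p = 0.0298 by limma). For all of these control replicate 3 was the lowest control and N1OE replicate 1 the highest N1OE library, close to each other. Cardiac actin Actc1, which embryonic skeletal muscle also expresses, overlapped at exactly that point, with 703, 2302, 196 and 1219.5 CPM in control libraries and 200.3, 22.2 and 23.9 CPM in N1OE libraries (-4.06 ± 1.04, adjusted p = 0.0499 by limma). The M-band protein Myom2 fell from 28.7 to 304 CPM in the controls to 1.57 to 9.01 CPM in N1OE (-5.21 ± 0.91, adjusted p = 0.0173 by limma). The intermediate filament desmin, Des, fell from 146 to 605 CPM in the controls to 17.4 to 54.5 CPM in N1OE (-3.66 ± 0.62, adjusted p = 0.0162 by limma).

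The summed level of the contractile list was 15407 CPM in control replicate 1, 8508 in replicate 2, 3482 in replicate 3 and 16102 in replicate 4, against 3176, 2121 and 2082 CPM in N1OE replicates 1 to 3. The median member deviated from its mean over all libraries by -0.31 in control replicate 3 and -0.30 in N1OE replicate 1. Of the 11 calls 0 were held in every refit and 0 passed with N1OE replicates 2 and 3 averaged. The number called was 5, 2, 18 and 6 without control replicates 1 to 4, 6, 0 and 0 without N1OE replicates 1 to 3, 1 by limma-voom, 0 with no filter on low values and 26 with a replicate block. Myh3, Acta1 and Mylpf were each lost without control replicate 1, 2 or 4 or any 1 N1OE library (adjusted p up to 0.173, 0.151 and 0.165 by limma), Actc1 likewise except without N1OE replicate 1 (0.186), Myl1 without N1OE replicate 2 or 3 or control replicate 2 (0.129), and Des and Myom2 without N1OE replicate 2 or 3 (0.0818 and 0.0862). In bulk samples fewer differentiated cells and less RNA per cell cannot be told apart.

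**Figure D3:**
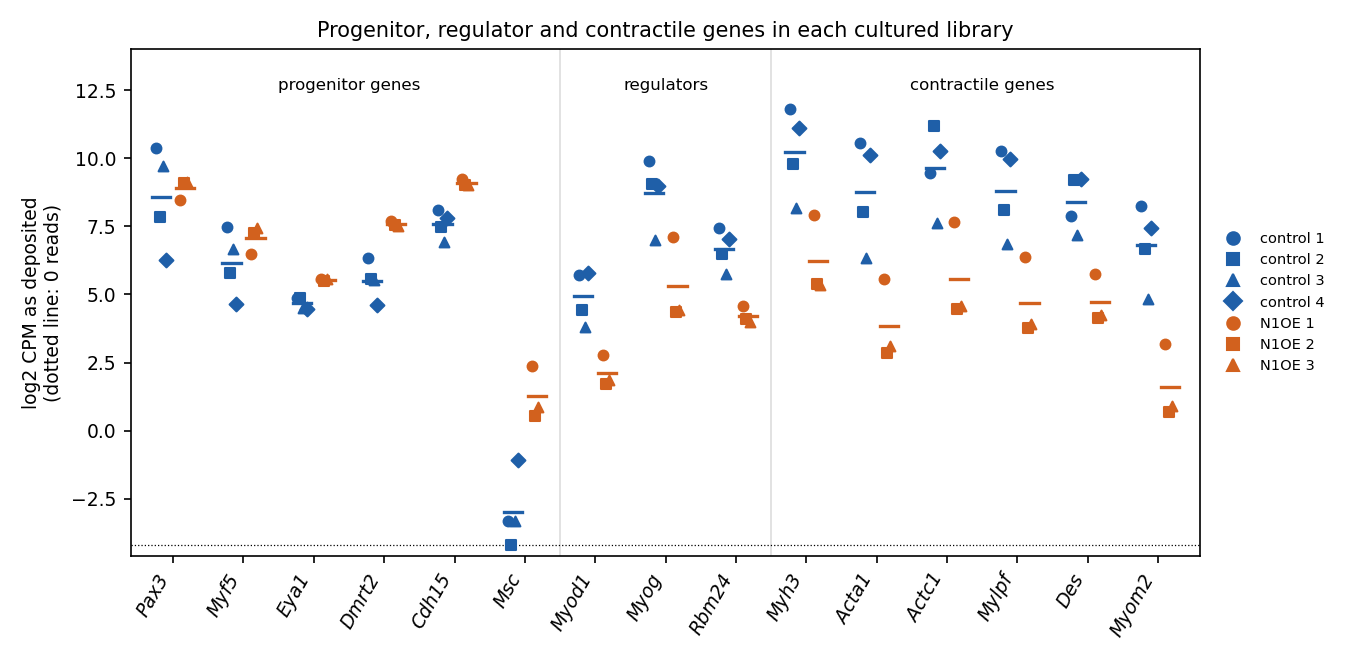
Deposited log2 CPM of 15 genes of the muscle lineage in each control (blue) and N1OE (orange) library, one marker shape per replicate number, with the group mean as a bar. Eya1, Dmrt2, Cdh15 and Msc lie higher in every N1OE library, and for Myog and Actc1 N1OE replicate 1 (circle) reaches control replicate 3 (triangle).

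Genes of calcium handling and excitation couple the nerve signal to contraction. Of 22 tested 5 fell and 0 rose (rose 0%, fell 22.7%), 19 had a negative and 3 a positive difference, and 0 passed by limma-voom or with N1OE replicates 2 and 3 averaged. Without control replicates 1, 2 and 3 the number called was 3, 0 and 8, and without N1OE replicates 1 to 3 it was 3, 0 and 0. Cacna1s, the voltage sensor of the transverse tubule, was at 87.2, 26.7, 10.3 and 87.4 CPM in control libraries and 5.2, 1.2 and 1.62 CPM in N1OE libraries (-4.10 ± 0.86, adjusted p = 0.0298 by limma). The calcium pump Atp2a1 fell from 46.7 to 409 CPM in the controls to 6.04 to 45.8 CPM in N1OE (adjusted p = 0.047 by limma), with N1OE replicate 1 just under control replicate 3. All 5 calls were lost in at least 1 refit, Cacna1s without control replicate 2 or any 1 N1OE library (0.129 at most by limma), and Atp2a1 without N1OE replicate 2 or 3 or control replicate 1, 2 or 4 (0.177). Of 15 fusion and adhesion genes 2 rose and 0 fell (rose 13.3%, fell 0%), Cdh15 and Dock1, a guanine nucleotide exchange factor of myoblast fusion (73.6, 77.3, 76.9 and 87.5 CPM in control libraries and 105, 102 and 101 CPM in N1OE libraries; 0.38 ± 0.09, adjusted p = 0.0351 by limma). Dock1 was lost without any 1 N1OE library or without control replicate 1, 2 or 3 (0.148). Across the 15 fusion and adhesion genes, however, 9 had a negative and 6 a positive difference, and the median was -0.36 (log2).

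Of 30 cell cycle genes 1 rose and 0 fell (rose 3.33%, fell 0%), 27 had a positive difference and the median was 1.0. The called gene was Cdk4, a kinase of the G1 phase, at 585, 574, 564 and 488 CPM in control libraries and 699, 693 and 717 CPM in N1OE libraries (0.35 ± 0.09, adjusted p = 0.0485 by limma). It was lost without control replicate 1, 2 or 3 or any 1 N1OE library (0.189). The proliferation marker Mki67 at 524, 168, 414 and 100.4 CPM in control libraries and 499.8, 566 and 552 CPM in N1OE libraries did not pass, and control replicates 2 and 4 lay below the rest while replicates 1 and 3 reached or neared the N1OE level (adjusted p = 0.198 by limma). The list's median member deviated by -0.92 and -1.38 in control replicates 2 and 4 and by 0.39 and 0.24 in replicates 1 and 3, against 0.36 to 0.68 in N1OE. Of 18 cyclin-dependent kinase inhibitors and p53 targets 0 passed, and 2 had an unadjusted p under 0.05. Of these Cdkn1a, the p21 inhibitor, had means of 549 ± 94.6 against 855 ± 238 CPM (SD) (adjusted p = 0.114 by limma).

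Among the called genes with the largest gains in mean CPM, 6 are described here and Heyl is given above. Igfbp5, a secreted binder of insulin-like growth factors, was at 1635, 537, 348 and 856 CPM in control libraries and 3271, 4730.0 and 3167 CPM in N1OE libraries (2.35 ± 0.49, adjusted p = 0.0296 by limma). Capn6, a calpain without protease activity, was at 962, 635, 414 and 200.2 CPM in control libraries and 3394, 2216 and 2035 CPM in N1OE libraries (2.39 ± 0.51, adjusted p = 0.0303 by limma). The paired collagen IV chains Col4a1 and Col4a2 both rose, with means of 2906 ± 336 against 1218 ± 308 CPM (SD) and 1706 ± 230.3 against 713 ± 226 CPM (SD) (1.28 ± 0.21 and 1.31 ± 0.25, adjusted p = 0.0145 and 0.0241 by limma). The amino acid transporter Slc38a4 was at 629.7, 375, 496 and 384 CPM in control libraries and 1266, 1688 and 1439 CPM in N1OE libraries (1.66 ± 0.20, adjusted p = 0.00614 by limma). The membrane protein Tmem47 was at 289.6, 209.8, 240.2 and 173 CPM in control libraries and 736, 771 and 799.6 CPM in N1OE libraries (1.78 ± 0.17, adjusted p = 0.00264 by limma). Both were held in every refit. The other 4 were lost without any 1 N1OE library (adjusted p up to 0.128, 0.112, 0.0669 and 0.0961 by limma). Of those 4, Igfbp5, Capn6 and Col4a2 were also lost without control replicate 2, and Capn6 also without control replicate 3.

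Outside the contractile genes the most abundant losses included 3 genes that did not overlap. Thbs1, thrombospondin, a matrix protein induced by TGF-beta, was at 706, 453, 406 and 815 CPM in control libraries and 108, 143 and 133 CPM in N1OE libraries (-2.16 ± 0.26, adjusted p = 0.00586 by limma) and was held in every refit. App, the amyloid precursor protein, was at 438, 698, 426 and 789.8 CPM in control libraries and 181, 159 and 157 CPM in N1OE libraries (-1.78 ± 0.24, adjusted p = 0.0083 by limma) and was lost without N1OE replicate 2 (0.0517). Prune2 fell from 411 to 1074 CPM in the controls to 277 to 366 CPM in N1OE (adjusted p = 0.0443 by limma) and was lost without any 1 N1OE library or without control replicate 1, 2 or 3 (0.166).

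The steepest rises were of genes nearly silent in the controls. Tfap2b, a transcription factor of the AP-2 family, had 2 reads in all 4 controls together and 2489 in N1OE, a depth-scaled read ratio of 1682 (95% interval 465 to 13897, counting error only), at 0, 0.0655, 0.0464 and 0 CPM in control libraries and 61, 41.9 and 30.0 CPM in N1OE libraries (adjusted p = 0.000485 by limma). Its paralog Tfap2a, not silent in the controls, was at 2.8, 1.96, 2.18 and 2.85 CPM in control libraries and 10.9, 13.5 and 12.7 CPM in N1OE libraries (2.32 ± 0.22, adjusted p = 0.00253 by limma). The alpha-1A adrenergic receptor Adra1a was at 1.1, 0.589, 0.371 and 0.119 CPM in control libraries and 97.9, 71.6 and 72.9 CPM in N1OE libraries (7.37 ± 0.60, adjusted p = 0.00232 by limma). Gal, the neuropeptide galanin, stood at 0.23, 0.393, 0.371 and 0.297 CPM in control libraries and 37.9, 36.2 and 35.3 CPM in N1OE libraries (6.62 ± 0.25, adjusted p = 0.000211 by limma). The synaptic organiser Cbln1 (26.6 to 33.4 CPM in N1OE, adjusted p = 0.00632 by limma) and Tbc1d30, a GTPase activator (12.3 to 31.1 CPM, adjusted p = 0.00232 by limma), were below 2 CPM in every control. Kcnt1, a sodium-activated potassium channel, had 0 reads in all 4 controls and 183 in N1OE, at least 82.4-fold higher with 3 reads set over the controls (adjusted p = 0.00232 by limma). All 7 of these were held in every refit. S1pr1, a sphingosine 1-phosphate receptor, was not silent in the controls and was higher in all 3 N1OE libraries (25.3, 27.8, 23.5 and 18.3 CPM in control libraries and 128, 101 and 98.6 CPM in N1OE libraries; 2.21 ± 0.17, adjusted p = 0.00231 by limma), also in every refit.

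Other rises were uneven between the N1OE libraries. Flt1, the VEGF receptor, was at 0.138, 1.11, 0.232 and 5.35 CPM in control libraries and 186, 44.2 and 43.9 CPM in N1OE libraries (6.54 ± 1.18, adjusted p = 0.0192 by limma). Fap, a fibroblast surface protease, was at 0.23, 0, 0.139 and 1.37 CPM in control libraries and 32.9, 9.44 and 8.07 CPM in N1OE libraries (5.74 ± 1.08, adjusted p = 0.0214 by limma). In both, N1OE replicate 1 was several-fold above replicates 2 and 3 while all 3 exceeded every control. Each was lost without any 1 N1OE library (adjusted p up to 0.0767 and 0.0864 by limma). The pericyte receptor Pdgfrb had the same shape at 0.597, 5.76, 1.95 and 31.9 CPM in control libraries and 170.3, 30.0 and 32.1 CPM in N1OE libraries, but control replicate 4 reached N1OE replicates 2 and 3, and it did not pass (adjusted p = 0.1 by limma).

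Several genes fell to a few reads or none. Slc1a3, a glutamate transporter of glia, was read at 8.23 to 79.0 CPM in the controls and had 0 reads in all 3 N1OE libraries, at least 608-fold lower with 3 reads set over that group (adjusted p = 0.00232 by limma). Ccn3, a matricellular protein, was at 56.1, 383, 219.7 and 32.4 CPM in control libraries and 0.347, 0.252 and 0.66 CPM in N1OE libraries (-7.97 ± 0.86, adjusted p = 0.00402 by limma). Hand1, a transcription factor of lateral plate and heart, was at 20.2, 67.3, 59 and 29.2 CPM in control libraries and 0.248, 0 and 0.305 CPM in N1OE libraries (-7.76 ± 0.75, adjusted p = 0.00279 by limma). Nrn1, neuritin, had 19 to 67.5 CPM in the controls and 0.315 to 0.508 CPM in N1OE (adjusted p = 0.00231 by limma). The adhesion molecule Selp, P-selectin, fell from 6.66 to 26.5 CPM in the controls to 0.0495 to 0.152 CPM in N1OE and the decoy receptor Tnfrsf11b, osteoprotegerin, from 6.84 to 12.6 CPM in the controls to 0 to 0.248 CPM in N1OE (adjusted p = 0.00238 and 0.00288 by limma). Prdm6, a smooth muscle chromatin factor, had 1 read in N1OE against 663 in the controls, a depth-scaled read ratio of 491 (95% interval 87.7 to 19404, counting error only). All 7 were held in every refit, although the controls of Slc1a3, Ccn3 and Prdm6 differed several-fold among themselves. By limma-voom on the recovered reads, Slc1a3, Ccn3, Hand1, Nrn1 and Prdm6 did not pass (adjusted p = 0.0903, 0.16, 0.0573, 0.0544 and 0.057).

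Other falls were smaller in fold and steadier. F11r, a junctional adhesion molecule, was at 42.4, 42.6, 47.7 and 56.5 CPM in control libraries and 4.6, 4.72 and 5.28 CPM in N1OE libraries (-3.26 ± 0.15, adjusted p = 0.000359 by limma). Macroh2a2, a macroH2A histone variant found in silent chromatin, was at 20.8, 33.5, 31 and 19.7 CPM in control libraries and 0.792, 0.881 and 0.559 CPM in N1OE libraries (-5.03 ± 0.28, adjusted p = 0.000758 by limma). The kinase Ripk4 fell from 25.9 to 68.2 CPM in the controls to 0.941 to 1.83 CPM in N1OE (-4.89 ± 0.36, adjusted p = 0.00231 by limma). The transcription factor Stat3, named after its values were seen, was at 172, 195, 151 and 188 CPM in control libraries and 96.7, 72.7 and 73 CPM in N1OE libraries (-1.13 ± 0.14, adjusted p = 0.00632 by limma). These 4 were held in every refit, and none overlapped between the groups.

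Of 20 BMP and Id genes 6 fell and 1 rose (rose 5%, fell 30%). The ligand Bmp7 went from 209 reads in the controls to 3 in N1OE, a depth-scaled read ratio of 51.5 (95% interval 17.4 to 252, counting error only; adjusted p = 0.0104 by limma). Gdf6 fell from 7.24 to 37.7 CPM in the controls to 1.07 to 2.57 CPM in N1OE (adjusted p = 0.0189 by limma). Bmper, which binds BMPs outside the cell, was at 37.1, 25, 22.7 and 31.5 CPM in control libraries and 3.91, 5.98 and 3.86 CPM in N1OE libraries (-2.66 ± 0.24, adjusted p = 0.00253 by limma). Id4 was the riser, with means of 17 ± 3.76 against 7.14 ± 1.5 CPM (SD) (adjusted p = 0.0227 by limma). Only Bmper of the 7 was held in every refit; Bmp7 and Gdf6 were lost without N1OE replicate 2 or 3 (up to 0.0525 and 0.0933), and Id4 without these or control replicate 2 (0.116).

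In the Wnt list of 21 genes 3 fell and 2 rose (rose 9.52%, fell 14.3%). The ligand Wnt5a was at 23.2, 36.1, 28.3 and 60.1 CPM in control libraries and 9.45, 10.8 and 9.09 CPM in N1OE libraries (-1.82 ± 0.31, adjusted p = 0.0166 by limma). Lgr4, a receptor for R-spondins that strengthens Wnt signalling, was at 86.8, 83, 70.0 and 66.9 CPM in control libraries and 28.7, 28.6 and 29 CPM in N1OE libraries (-1.40 ± 0.12, adjusted p = 0.00232 by limma). Znrf3, a ligase that removes Wnt receptors, rose from 13.6 to 14.8 CPM in the controls to 22.2 to 26.9 CPM in N1OE (0.81 ± 0.12, adjusted p = 0.011 by limma). The ligand Wnt2, outside that list, had 2 reads in N1OE against 507 in the controls, a depth-scaled read ratio of 188 (95% interval 51.7 to 1553, counting error only; adjusted p = 0.0185 by limma). Lgr4 was held in every refit. Wnt5a and Wnt2 were lost without any 1 N1OE library and Znrf3 without N1OE replicate 2 or 3 (up to 0.0831, 0.0908 and 0.0734).

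Among 19 FGF and Sprouty genes 1 fell and 1 rose (rose 5.26%, fell 5.26%). Fgf5 had 264 reads in the controls and 3 in N1OE, a depth-scaled read ratio of 65.1 (95% interval 22 to 318, counting error only; adjusted p = 0.00685 by limma), held in every refit. The riser, Fgfr1, is given with the satellite cell markers. Of 20 TGF-beta and CCN responsive genes 5 fell and 1 rose (rose 5%, fell 25%), and the summed level of the list was 1958 to 3906 CPM in the controls against 1000 to 1030 CPM in N1OE, without overlap. Ltbp1, which stores latent TGF-beta in the matrix, was at 324, 375, 478 and 511 CPM in control libraries and 65.4, 128 and 138 CPM in N1OE libraries (-1.98 ± 0.29, adjusted p = 0.0103 by limma). With Thbs1 and Ccn3 it made up the 3 falls of that list held in every refit. Together these 3 genes made up the larger part of the sums in control replicates 2 and 3. The sums therefore do not stand for the list as a whole. Of its 20 genes, 14 had a negative and 6 a positive difference, and the median was -1.21 (log2). Of 14 retinoic acid genes 1 fell and 1 rose (rose 7.14%, fell 7.14%). The faller was Dhrs3, a retinaldehyde reductase, from 6.2 to 13.4 CPM in the controls to 0.198 to 0.457 CPM in N1OE (-4.60 ± 0.38, adjusted p = 0.00232 by limma, in every refit). The riser was Stra6, the cellular uptake receptor for retinol, from 0.325 to 3.49 CPM in the controls to 11.4 to 20.4 CPM in N1OE (adjusted p = 0.0339 by limma). Stra6 was lost without control replicate 2 or any 1 N1OE library (0.125). The chemokine Cxcl12, which guides migrating cells, was at 13.1, 64.9, 45.9 and 349.9 CPM in control libraries and 1.93, 1.07 and 1.12 CPM in N1OE libraries (-5.46 ± 0.98, adjusted p = 0.0189 by limma) and was lost in the same 4 refits (up to 0.0916).

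Of 29 ephrin, semaphorin and axon guidance genes 4 fell and 2 rose (rose 6.9%, fell 13.8%). Sema3c, a secreted semaphorin, was at 108, 106, 69.8 and 72.7 CPM in control libraries and 13.2, 11.1 and 8.43 CPM in N1OE libraries (-3.02 ± 0.23, adjusted p = 0.00231 by limma). The ligand ephrin-A5, Efna5, at 47.2, 66.2, 66.5 and 46 CPM in control libraries and 16.8, 15.9 and 13.8 CPM in N1OE libraries, and the receptor Epha4, at 60.9, 52.1, 62.3 and 54.2 CPM in control libraries and 31.4, 29.9 and 28.5 CPM in N1OE libraries, both fell (-1.84 ± 0.18 and -0.93 ± 0.10, adjusted p = 0.0028 and 0.00434 by limma). These 3 were held in every refit. Sema6b, a membrane semaphorin outside that list, fell from 19.2 to 46.4 CPM in the controls to 2.96 to 5.0 CPM in N1OE (adjusted p = 0.00527 by limma) and was held too. Of 36 extracellular matrix genes 4 rose and 2 fell (rose 11.1%, fell 5.56%). Beside the collagens IV, the minor collagen V chain Col5a3 was at 8.18, 26.1, 16.3 and 69.5 CPM in control libraries and 139.7, 124 and 151 CPM in N1OE libraries (2.63 ± 0.64, adjusted p = 0.0441 by limma). The crosslinking enzyme Loxl2 was at 125, 237, 192 and 394 CPM in control libraries and 43.9, 38.6 and 54.8 CPM in N1OE libraries (-2.26 ± 0.36, adjusted p = 0.0134 by limma). Both were lost without any 1 N1OE library (up to 0.159 and 0.0715), and Col5a3 also without control replicate 2 or 3. The list's summed level was 9702 to 26908 CPM in the controls, highest in replicate 4, and 13085 to 16075 CPM in N1OE.

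Of 14 factors of lateral plate, cardiac and limb mesoderm 6 fell and 3 rose (rose 21.4%, fell 42.9%). The 9 calls became 4 without control replicate 2, 4, 2 and 2 without N1OE replicates 1 to 3, 2 with N1OE replicates 2 and 3 averaged, and 4 by limma-voom. Beside Hand1, the homeobox factor Irx5 fell from 7.46 to 10.3 CPM in the controls to 1.93 to 2.79 CPM in N1OE (-1.96 ± 0.23, adjusted p = 0.00561 by limma), and both were held in every refit. Osr1, a factor of intermediate and lateral mesoderm, fell from 7.66 to 18.1 CPM in the controls to 0.66 to 2.33 CPM in N1OE, Foxf1 from 1.29 to 7.84 CPM in the controls to 0.126 to 0.457 CPM in N1OE and Gata4 from 2.44 to 6.5 CPM in the controls to 0.818 to 1.34 CPM in N1OE (adjusted p = 0.0096, 0.0325 and 0.0232 by limma). Tbx2, a T-box repressor, was one of the risers, with means of 13.7 ± 3.72 against 7.12 ± 0.586 CPM (SD) (adjusted p = 0.0411 by limma). Osr1 was lost without N1OE replicate 2 or 3, Foxf1 and Gata4 without control replicate 2 or any 1 N1OE library, Foxf1 also without control replicate 3, and Tbx2 without N1OE replicate 2 or 3 or control replicate 1, 2 or 3 (up to 0.052, 0.131, 0.109 and 0.172). The homeobox factor Six2, named after its values were seen, was at 38.6, 93.4, 61.9 and 23.9 CPM in control libraries and 2.92, 1.57 and 2.34 CPM in N1OE libraries (-4.41 ± 0.47, adjusted p = 0.00375 by limma) and was held in every refit. Of 5 tested Hox genes 1 fell and 0 rose (rose 0%, fell 20%). It was Hoxd8, from 2.97 to 12.8 CPM in the controls to 0.189 to 0.644 CPM in N1OE (adjusted p = 0.0108 by limma), and was lost without N1OE replicate 2 or 3 (0.0591).

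**Figure D4:**
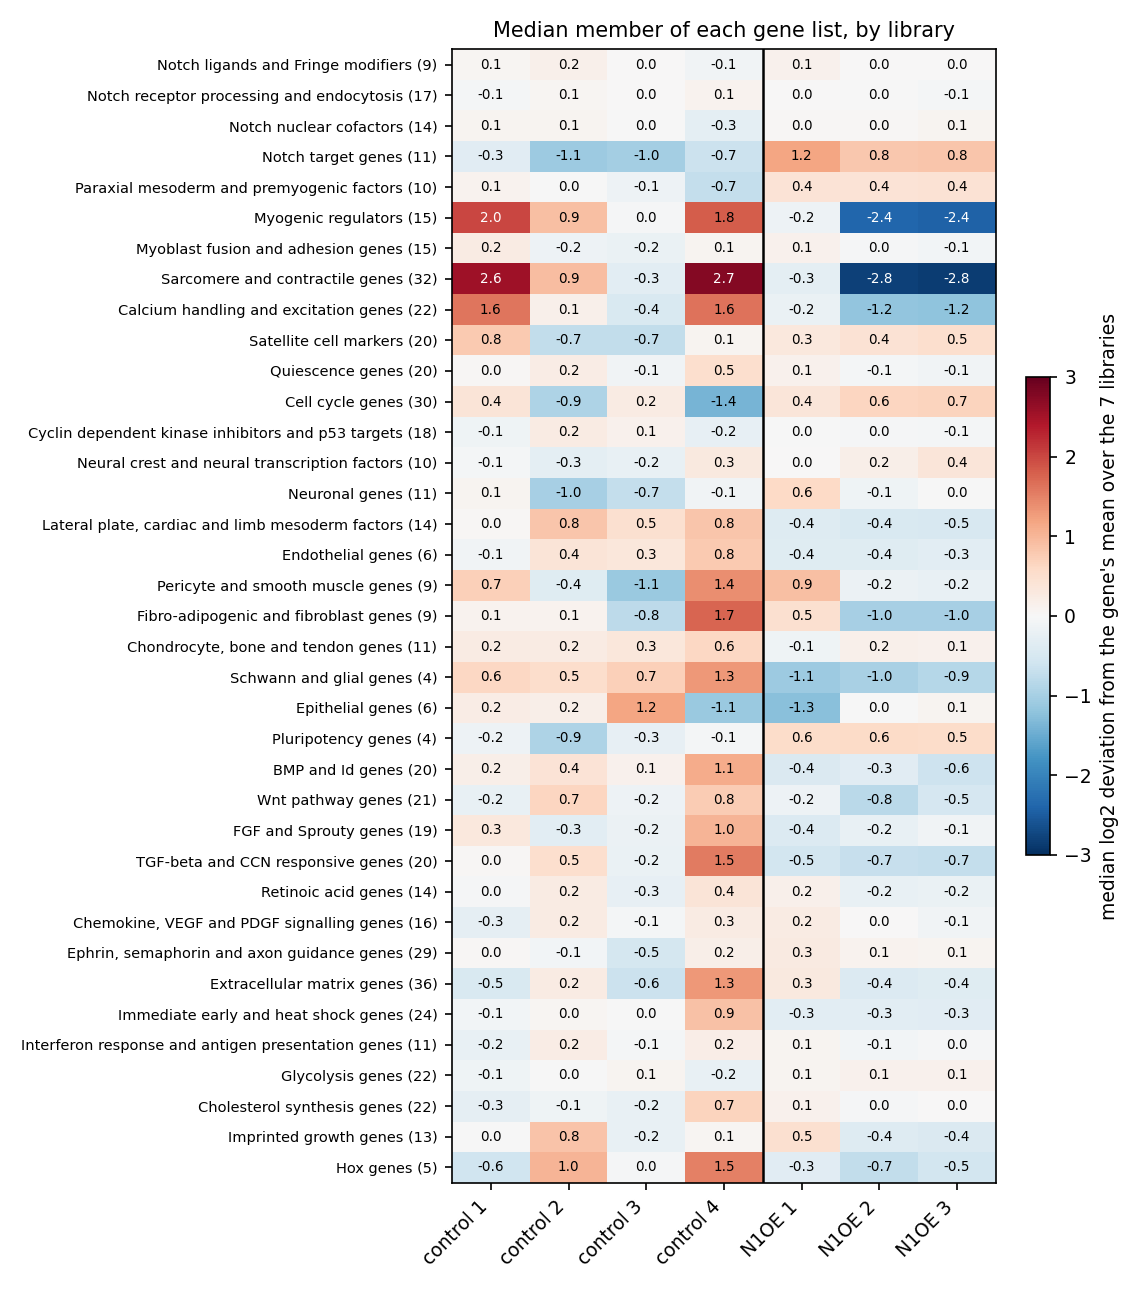
Median deviation of the tested members of each gene list with at least 4 tested genes from their own means over the 7 libraries (log2 scale, number of tested genes in parentheses), by library. Notch targets are positive in all 3 N1OE libraries and negative in all controls, while contractile genes in N1OE replicate 1 are level with control replicate 3.

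Markers of other cell types were read at low to moderate levels, and their part in the results above was not tested. The summed level of 16 endothelial genes was 88.9 to 329 CPM in the controls and 121 to 265 CPM in N1OE, with Tie1 and Sox17 at 0 reads in all libraries. That of 14 pericyte and smooth muscle genes was 585 to 1666 against 763 to 1224 CPM and that of 14 fibroblast genes 799 to 1668 against 691 to 1547 CPM, all overlapping. Single members differed nonetheless. Of 6 tested endothelial genes 1 rose and 1 fell (rose 16.7%, fell 16.7%). The endothelial riser was Flt1, given above, which made up the larger part of the sum in N1OE replicate 1. The endothelial sums therefore do not stand for that list as a whole. Of its 6 tested genes, 4 had a negative and 2 a positive difference, and the median was -0.64 (log2). Of 9 tested pericyte and smooth muscle genes 1 rose and 3 fell (rose 11.1%, fell 33.3%), and of 9 tested fibroblast genes likewise. Only the pericyte and smooth muscle riser was held in every refit. Schwann and glial genes (10 listed) summed to 70.2 to 176 CPM in the controls and 35.5 to 38.2 CPM in N1OE, without overlap. Of 4 tested 2 fell and 0 rose (rose 0%, fell 50%), Slc1a3 and Ngfr, the low-affinity neurotrophin receptor. Ngfr was at 17.3, 20.4, 30.2 and 32.4 CPM in control libraries and 2.43, 3.21 and 3.61 CPM in N1OE libraries (-2.97 ± 0.27, adjusted p = 0.00253 by limma, in every refit). Sox10, the defining factor of that lineage, did not exceed 0.524 CPM in any library. Chondrocyte, bone and tendon genes (16 listed) summed to 364 to 858 CPM in the controls and 330 to 351 CPM in N1OE, also without overlap. Of 11 tested 3 fell and 0 rose (rose 0%, fell 27.3%), Ccn3 and Tnfrsf11b among the fallers. Yet 7 of the 11 had a positive difference and the median was 0.51 (log2). Ccn3, given above, made up the larger part of the sums in control replicates 2 and 3, so the sums do not stand for the list as a whole. The 14 macrophage and blood genes summed to at most 11.8 CPM, with 6 at 0 reads. Epithelial genes (14 listed) ranged over 112 to 568 CPM in the controls and 95.7 to 236 CPM in N1OE. Of 6 tested 1 rose and 0 fell (rose 16.7%, fell 0%), while the other 5 had a negative difference and the median was -0.79 (log2). The riser was Pkp1, a desmosome protein, at 0, 0, 0 and 0.297 CPM in control libraries and 5.89, 17.4 and 21.4 CPM in N1OE libraries (7.23 ± 0.84, adjusted p = 0.00512 by limma, in every refit). Of 14 pluripotency genes Pou5f1, Sox2, Dppa3 and Utf1 had 0 reads in all libraries, and the list summed to 22.5 to 60.5 CPM in the controls and 58.8 to 63.0 CPM in N1OE. All 4 tested members had a positive difference, and 1 rose and 0 fell (rose 25%, fell 0%), with 0 held in every refit.

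Of 24 immediate early and heat shock genes 2 fell and 0 rose (rose 0%, fell 8.33%). They were the AP-1 subunit Fosl2, from 55.4 to 139 CPM in the controls to 13.7 to 16.4 CPM in N1OE and the small heat shock protein Hspb1 from 74.2 to 114 CPM in the controls to 32.9 to 35.4 CPM in N1OE (-2.49 ± 0.31 and -1.47 ± 0.15, adjusted p = 0.00628 and 0.00331 by limma, both in every refit). Of 22 glycolysis genes 2 rose and 1 fell (rose 9.09%, fell 4.55%). The neuronal glucose transporter Slc2a3 was at 5.84, 1.9, 3.02 and 12.4 CPM in control libraries and 35.2, 60.2 and 60.2 CPM in N1OE libraries (3.46 ± 0.61, adjusted p = 0.0178 by limma). The muscle isoform Pgam2 fell from 14.4 to 79 CPM in the controls to 4.53 to 8.37 CPM in N1OE (adjusted p = 0.0393 by limma). Both were lost without any 1 N1OE library (up to 0.0906 and 0.154), and Pgam2 also without control replicate 1 or 2. Among 13 tested imprinted growth genes 1 fell and 0 rose (rose 0%, fell 7.69%), Igf2r, the receptor that clears Igf2, with means of 39.7 ± 5.68 against 139 ± 78.7 CPM (SD) (adjusted p = 0.0436 by limma), lost without any 1 N1OE library or control replicate 2 or 3 (0.161). By limma 0 of 22 cholesterol synthesis genes passed (1 at an unadjusted p under 0.05, 0 by limma-voom), 0 of 11 interferon response and antigen presentation genes (1 and 0) and 0 of 73 cytosolic ribosomal protein genes (2 and 0).

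Calls were counted by chromosome as well. Relative to the median of all tested genes, the median log2 difference of an autosome or of X lay between -0.15 (chromosome 15) and 0.07 (chromosome 13). On chromosome 15 7 of 488 tested genes rose (1.43%) and 38 fell (7.79%), Slc1a3, Ccn3 and Tnfrsf11b among them. There the median gene deviated by -0.06 to -0.04 in the N1OE libraries and by 0.10 in control replicates 2 and 3, while control replicates 1 and 4 lay near 0. No test was made between chromosomes.

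**Figure D5:**
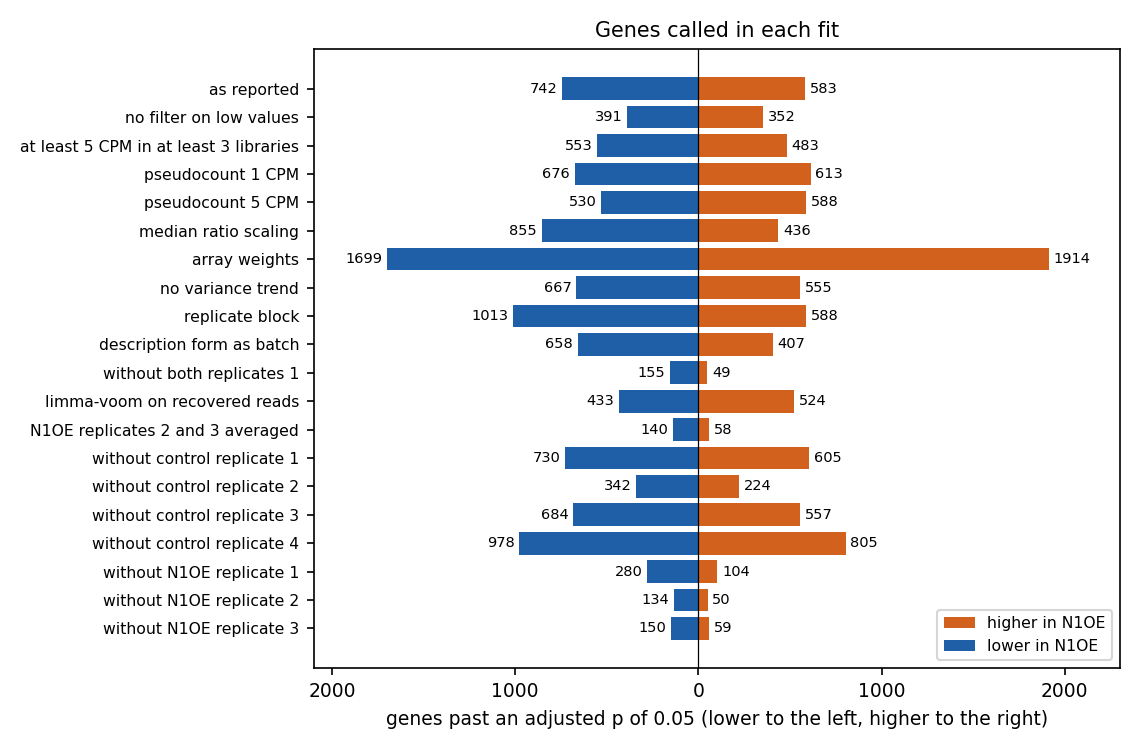
Number of genes past an adjusted p of 0.05, higher and lower in N1OE, under each setting. The count ranges from 184 without N1OE replicate 2 to 3613 with weights per library, against 1325 as reported.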

How the data were processed

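Gene expression was measured by RNA sequencing of 4 control and 3 N1OE libraries of cultured cells. The deposited values are log2 CPM per gene, made by the authors with a common lowest value that stands for 0 reads. Per the submitters' processing notes, the tools included Trimmomatic 0.33, FastQC, featureCounts and edgeR, and the build was mm10. The aligner, the annotation and the strand setting of counting are not given in the sources used here. Among values of lower read number, whole reads could be recovered for 100% (tolerance 0.05). Values of high read number were rounded without that check. In the cultured libraries, however, genes with 1 read outnumbered those with 2 by 2.34 to 3.40 times. The table's name also carries an unexplained "corr", so whether values were adjusted before deposit was not decided. Depth sets the smallest step, and intervals and floors (3 reads) cover counting error only.

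Genes that reached 1 CPM in 3 or more of the 7 libraries were tested on the deposited log2 values, whose offset understates changes of low genes, with limma 3.58.1 (R 4.3.3, mean trend, two-sided, Benjamini-Hochberg adjustment over 12314 genes, threshold 0.05) and no covariate. The procedure was tested on simulated data drawn with the same spread in every library. Those data held no outlying library and no close pair of replicates, so they do not give the error rate here. CPM values printed are floor-subtracted. Fold changes are log2 differences, N1OE minus control, ± the standard error of limma. Alternatives were the filter, the pseudocount, median ratio scaling, library weights, no trend, a replicate block, the description form as batch, limma-voom on recovered reads, N1OE replicates 2 and 3 averaged, and each library left out. Counts of calls held in every refit were added after seeing the data. Python 3.11.15 was used for summaries.

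Coordinates are from GENCODE M21 (GRCm38), matched for 21186 of 21264 genes. Named genes were drawn from the Notch lists, the 12 largest rises and falls without overlap and at 5 CPM or more, the 8 with the largest level difference and the 8 with the smallest p each way, up to 3 members of each other list by p, and called members of gene families with fewer than 6 calls. Of the 193 genes so taken the text prints only a part. Dbx1, Armh4, Htr1a and Pcdh8 of the largest rises and Tgfbi, Apobr and Corin of the largest falls are not described. Atp2a1, Calcr, Eya4, Mki67, Msc, Myf5, Myl1, Pax3, Pdgfrb, Six2, Six4 and Stat3 were chosen after their values were seen. The genes and all 39 lists were chosen with earlier results of these data known.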

Additional observations from a re-analysis of the deposited data

Results flagged for a closer look

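Among the control libraries Pkp1, a desmosome protein, was read at 0.297 CPM (5 reads) in replicate 4 and at 0 CPM in the other 3. Any value above 0 beside 3 libraries at 0 is picked out by this comparison of gaps, so it does not show that replicate 4 stands apart. Of 107 genes checked in the 4 controls 1 was picked out, while chance flags about 1 in 20 groups.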

How the results depend on the processing

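Against 1325 genes (583 higher, 742 lower), 743 passed with no filter on low values, 3613 with weights per library, 204 without both replicates 1 and 198 with N1OE replicates 2 and 3 averaged. Leaving out 1 library at a time gave 184 to 1783. The split was 436 higher and 855 lower with median ratio scaling, which moved the median of all genes by 0.06 (log2), and 524 and 433 by limma-voom on recovered reads. Same-numbered samples deviated with correlations of 0.037, 0.071 and 0.468, so the numbers were not taken to pair them, and a replicate block, in which control replicate 4 has no partner and does not bear on the difference, gave 1601 genes. Pax3, not called, turned from 0.34 to -0.42 with the replicate block and without control replicate 4, and spanned -0.42 to 0.94 over the libraries left out in turn. Of 107 genes named in the text, 38, 54 and 52 lost their calls without N1OE replicates 1, 2 and 3. The causes were not tested. The 7 libraries and 2 near-identical N1OE replicates limit the precision.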
